A study of Mus musculus with 12 samples.

Results

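The genes described here are 10 regulators of the G1 phase of the cell cycle, counted in astrocytes, progenitors and stem cells from the dentate gyrus of the adult mouse. They were chosen by name, with earlier results of these data known. Among them are the Cip/Kip inhibitors Cdkn1a, Cdkn1b and Cdkn1c and the INK4 inhibitor Cdkn2c. The others are the D cyclins Ccnd1, Ccnd2 and Ccnd3, the kinases Cdk4 and Cdk6, and Rb1. All 10 were found among the 50600 gene rows of the count table, 28849 of them with a count in some library. All cells came from Nestin-GFP mice, 6 to 9 weeks old, in which green fluorescent protein is driven by regulatory sequence of the Nestin gene, and neither a mutation nor a treatment is given for any group. From live cells negative for CD31, CD45, O1 and O4, stem cells were sorted as positive for GLAST and GFP, progenitors as positive for GFP alone and astrocytes as positive for GLAST alone. There were 4 libraries per cell type, each made from 50 sorted cells, and the study describes 1 mouse brain per biological replicate. Stem cell libraries carry the replicate numbers 1 to 4 of their titles, while the astrocyte and progenitor columns carry no number and are called a to d, letters that only name them.

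In G1, D cyclins bind Cdk4 or Cdk6, and the active kinase phosphorylates the retinoblastoma protein, which otherwise holds E2F transcription factors inactive. INK4 proteins such as p18, encoded by Cdkn2c, bind Cdk4 and Cdk6 directly. The Cip/Kip proteins p21, p27 and p57, encoded by Cdkn1a, Cdkn1b and Cdkn1c, bind cyclin and kinase complexes more broadly. In the dentate gyrus, most adult neural stem cells rest in quiescence while intermediate progenitors divide, and cyclin D2, Cdk6 and the Cip/Kip inhibitors are known regulators of this balance. Much of this control acts on protein stability and phosphorylation, which RNA counts do not measure.

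Total counts ranged from 5357232 to 6253680 in astrocytes, from 9041498 to 12535028 in progenitors and from 5031166 to 10435711 in stem cells, and 3 counts in a library, taken as the floor, corresponded to between 0.2074 and 0.6525 CPM (counts divided by library size, with sizes scaled by TMM and expressed in units of 1000000). Genes with at least 10 counts numbered 9430 to 11655 per library in astrocytes, 13368 to 14175 in stem cells and 16389 to 17015 in progenitors. No molecular identifiers are named for these preamplified libraries, so floors and count intervals cover counting error only. Slc1a3, which encodes GLAST, was highest in stem cells at 7906 CPM ± 1294 (SD, n = 4), but progenitors, sorted as GLAST negative, still had 2765 CPM ± 590.5 (SD, n = 4). Nes RNA had a mean of 0.1306 CPM ± 0.2611 (SD, n = 4) in stem cells and of 9.965 CPM ± 8.861 (SD, n = 4) in progenitors, with no count in any astrocyte library. The gene whose regulatory sequence drives the reporter thus reached at most 0.5223 CPM in a stem cell library. The 7 astrocyte markers summed to 19110 to 24940 CPM in stem cells, above the 12900 to 17250 CPM of astrocytes, and to 5752 to 7711 CPM in progenitors. The 7 stem cell markers, Nes among them, summed to 1585 to 2383 CPM in stem cells, 1132 to 1602 CPM in astrocytes and 798.5 to 1071 CPM in progenitors. The 7 progenitor markers summed to between 792.5 and 1505 CPM in progenitors, between 9.957 and 39.57 CPM in stem cells and between 5.135 and 305.8 CPM in astrocytes. The 6 markers of oligodendrocyte precursors had a median sum of 2585 CPM in progenitors, where no library was under 1878 CPM, against sums between 63.72 and 144.1 CPM in stem cells and between 43.28 and 327.4 CPM in astrocytes. Among them, Pdgfra, Cspg4, Gpr17 and Sox10 had means of 577.1, 397.5, 319.2 and 169.9 CPM in progenitors. In astrocytes, 6 mature neuron markers summed to between 619.6 and 5476 CPM and 5 oligodendrocyte markers to between 213.3 and 2963 CPM, against 145.6 to 224 CPM and 91.68 to 129.4 CPM in progenitors and 237.7 to 473 CPM and 72.27 to 470 CPM in stem cells. The part of these differences between groups in the members' results was not tested. The libraries are pools of cells, so fewer cells that express a gene and less RNA per cell cannot be told apart.

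Of the 10 members, 6 were called higher in progenitors in at least 1 comparison, and none was called lower. A quasi-likelihood test (edgeR) was run for each of the 3 pairings of cell types, restricted to genes that reached 10 counts in 4 or more of the 8 libraries, and a gene was called at a Benjamini-Hochberg adjusted p under 0.05 over all genes tested. Against astrocytes, 4 of the 10 members were called higher in progenitors and 0 lower, while 6.18% of the 14806 genes tested were called higher and 2.45% lower. Against stem cells, 5 of the 10 members were called higher in progenitors and 0 lower, beside 4.95% higher and 3.66% lower among 15427 genes. Ccnd1, Cdk4 and Cdkn1c were called in both comparisons, Cdkn1a against astrocytes, and Ccnd2 and Cdk6 against stem cells, and whether the comparisons differed from each other was not tested. The median log2 fold change of the members was 2.62 over astrocytes and 1.06 over stem cells, where the medians of all genes tested were -0.03 and 0.04. Both comparisons use the same 4 progenitor libraries, and the members were chosen with earlier results of these data known. Against astrocytes, Cdkn1a, Cdkn1c and Ccnd1 entered the test only through their counts in progenitors, as did Cdkn1c against stem cells. For them the filter alone fixed higher counts in every progenitor library, so these medians and numbers of calls are not independent of it. With all 12 libraries in 1 fit, Ccnd1 alone remained called over stem cells, and without a count filter Ccnd1 and Cdk4 remained called over astrocytes.

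**Figure D1:**
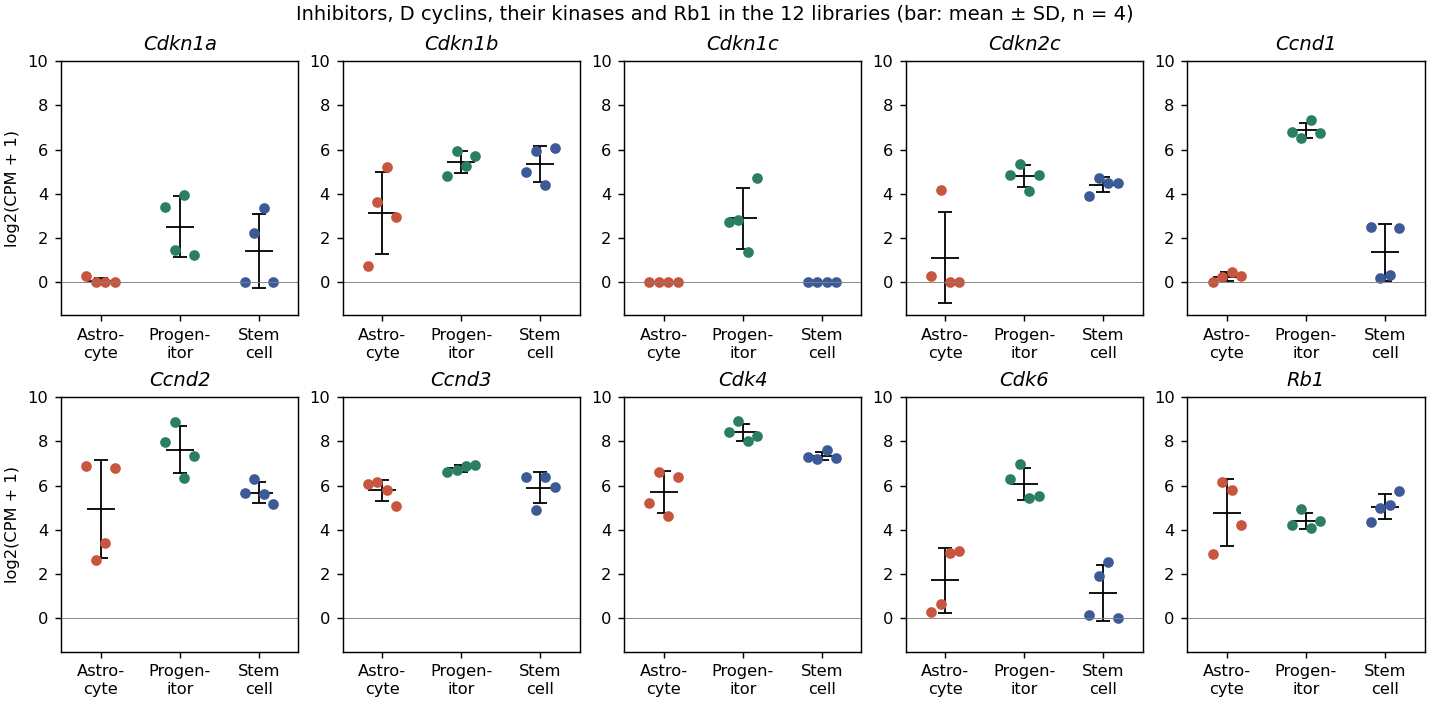
Each panel shows 1 gene, with log2(CPM + 1) on the vertical axis, a point for each of the 12 libraries and a bar at the mean of these values ± SD (n = 4). Ccnd1, Cdk4 and Cdk6 lie higher in all 4 progenitor libraries than in any other library, Cdkn1c has counts in progenitors only, and Rb1, Cdkn1b and Cdkn2c overlap between progenitors and stem cells.

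Cyclin D1, encoded by Ccnd1 on chromosome 7 (144929931 to 144939925, minus strand, GRCm38), is the D cyclin most often induced by growth factor signals. The 4 progenitor libraries had 111.7, 92.08, 162.7 and 106.8 CPM. The 4 stem cell libraries had 4.722, 0.1306, 0.2486 and 4.459 CPM, and the astrocyte libraries held 0, 1, 2 and 1 counts. Every progenitor library thus exceeded every other library, while stem cells fell into 2 libraries of 46 and 24 counts and 2 at the floor. The log2 fold change of progenitors over stem cells was 5.60 ± 0.93 (SE, edgeR quasi-likelihood adjusted p = 0.006). Over astrocytes, progenitors had 5771 summed counts against 4, a ratio of 584 after scaling for library size. The exact binomial 95% interval, 228 to 2144, leaves out the spread between libraries, and the edgeR adjusted p was 0.0012. Ccnd1 was too low for the test between stem cells and astrocytes, where an exact permutation test gave p = 0.229. Of its exonic bases, 23.4% overlap LTO1 on the other strand, which had 237 to 501 counts in progenitors, 1 to 193 in stem cells and 0 to 68 in astrocytes. In the comparison with astrocytes, Ccnd1 entered the test only through its counts in progenitors, so the filter alone fixed higher counts there. Without a count filter, the edgeR adjusted p against astrocytes was 0.000347. Ccnd1 remained called against both cell types without any 1 library and under every other setting in which it was tested. The setting that asked for the minimum count in every library left Ccnd1 out of both comparisons.

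Cyclin D2, encoded by Ccnd2 on chromosome 6 (127125162 to 127152193, minus strand), is the D cyclin on which adult hippocampal neurogenesis is known to depend. Its levels in progenitors were 249.8, 462.6, 80.85 and 161.9 CPM, and in stem cells 49.68, 78.6, 47.86 and 34.93 CPM. The lowest progenitor library was only just above the highest stem cell library. The log2 fold change over stem cells was 2.16 ± 0.49 (SE, edgeR adjusted p = 0.022). It was not called when Progenitor a or b or Stem 1, 3 or 4 was left out, with adjusted p values of up to 0.0655 by edgeR. Astrocytes split into a pair of libraries with 118.1 and 111.7 CPM and a pair with 5.318 and 9.58 CPM, and the log2 fold change of 2.01 ± 0.96 (SE) over them did not pass (edgeR adjusted p = 0.3).

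Cyclin D3, encoded by Ccnd3 on chromosome 17 (47505051 to 47599691, plus strand), varied least between progenitor libraries among the 10 genes. Those libraries had 98.05, 102.4, 117.8 and 121 CPM, against 82.12, 28.72, 83.29 and 60.38 CPM in stem cells and 65.47, 71.71, 55.68 and 33.01 CPM in astrocytes. All progenitor values lay above all the others, but the differences were small and did not pass over all genes. A processed pseudogene, Ccnd3-ps, had 1 count over all 12 libraries. The log2 fold change was 0.76 ± 0.33 (SE) over stem cells and 0.99 ± 0.46 (SE) over astrocytes, with edgeR adjusted p values of 0.22 and 0.29.

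Levels of different genes can be compared only per length, here as CPM per kilobase of all annotated exons. On this scale, progenitors differed from stem cells in the shares of Ccnd1 and Ccnd3 among the D cyclins, and stem cells and astrocytes overlapped in the shares of all 3. Ccnd1 held 41.6% ± 15.1 (SD, n = 4) of the D cyclin level in progenitors, 3.80% ± 4.11 in stem cells and 0.465% ± 0.485 in astrocytes. Progenitors did not overlap with either cell type (exact permutation test, p = 0.029 for each, the smallest that 4 libraries against 4 can give). Ccnd3 held 53.1% ± 16.9 in stem cells and 59.9% ± 34.4 in astrocytes against 20.5% ± 5.12 in progenitors (SD, n = 4 each). Progenitors and stem cells only just did not overlap, with at most 25.7% against at least 28.1% (exact permutation test, p = 0.029). Progenitors and astrocytes overlapped (exact permutation test, p = 0.057). The share of Ccnd2 overlapped, at 37.9% ± 19.3, 43.1% ± 19.1 and 39.6% ± 34.7 (SD, n = 4) in progenitors, stem cells and astrocytes. These are parts of a sum, and the level of Ccnd3 itself had a higher mean in progenitors (109.8 CPM) than in stem cells (63.6 CPM). With the length of the longest transcript instead, the progenitor shares were 33.7% for Ccnd1 and 30.0% for Ccnd3. The share of Ccnd3 was then at most 36.7% in progenitors and at least 37.4% in stem cells.

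**Figure D2:**
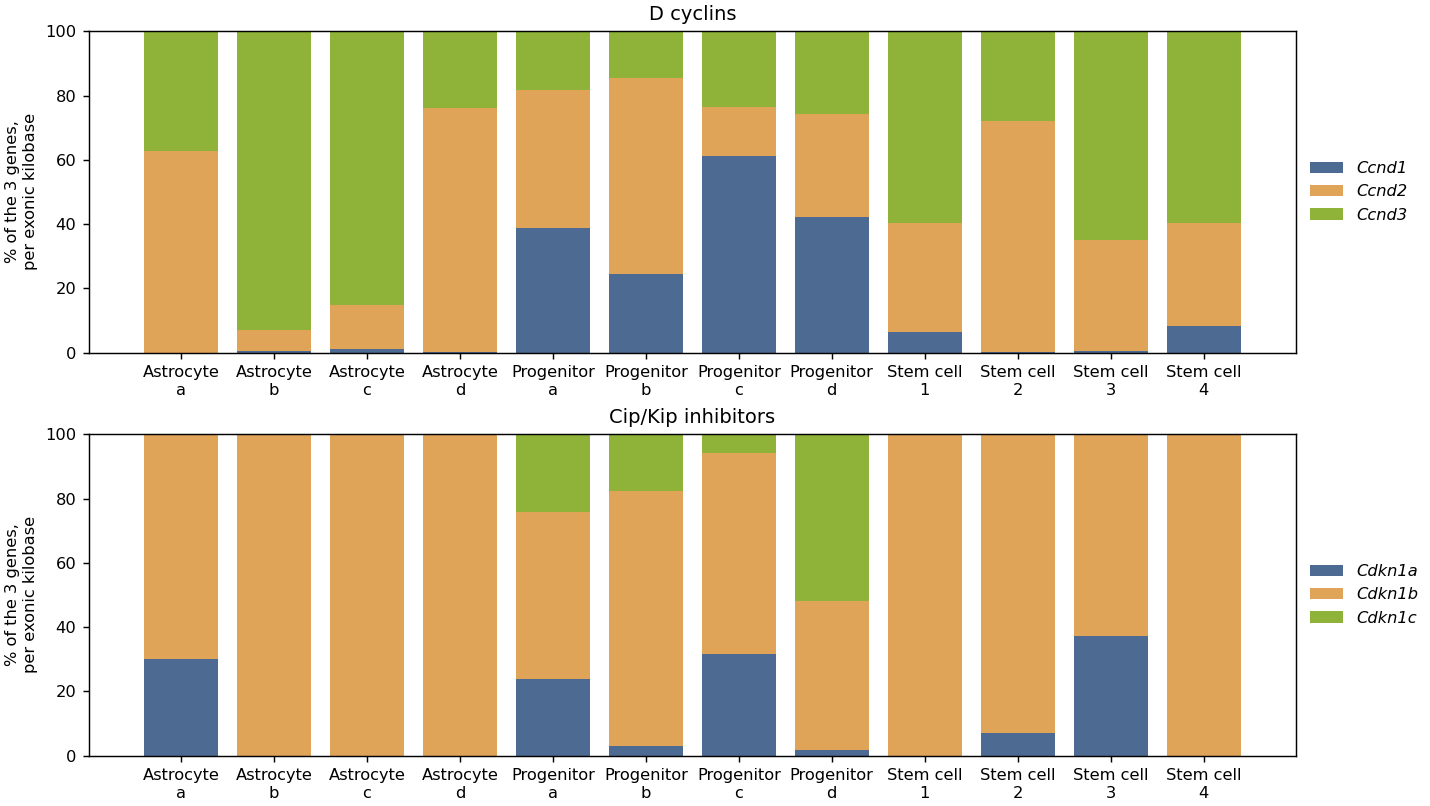
Stacked bars give, for each library, the percentage that each gene holds of the summed level per exonic kilobase of the 3 D cyclins (top) or of the 3 Cip/Kip inhibitors (bottom). Ccnd1 holds between 24.3% and 61.1% in progenitors and at most 8.21% elsewhere, and Cdkn1c appears in progenitors only; the Cip/Kip bar of Astrocyte a rests on 1 count of Cdkn1a and 3 of Cdkn1b.

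Cdk4, on chromosome 10 (127063534 to 127067920, plus strand), encodes the kinase that partners all D cyclins. It had the highest level per exonic kilobase of the 10 genes in every cell type, with 107.2 ± 29.4 CPM per kilobase in progenitors, 50.1 ± 7.06 in stem cells and 18.4 ± 10.9 in astrocytes (SD, n = 4). The library values were 345, 482.1, 260.8 and 305.1 CPM in progenitors, 156.6, 146.1, 196.5 and 151.8 CPM in stem cells, and 36.11, 96.46, 23.55 and 83.34 CPM in astrocytes. The cell types followed each other without overlap, from astrocytes through stem cells to progenitors. The number of genes with at least 10 counts per library rose in the same order, also without overlap. The paper describes the cDNA quality of the astrocytes as suboptimal. The part of library quality in the order of Cdk4 was not tested. Progenitors exceeded stem cells by a log2 fold change of 1.07 ± 0.22 (SE, edgeR adjusted p = 0.015) and astrocytes by 2.56 ± 0.51 (SE, edgeR adjusted p = 0.016). The step from astrocytes to stem cells, with a log2 fold change of 1.46 ± 0.55 (SE), did not pass over all genes (edgeR adjusted p = 0.38). Both calls held without any 1 library, with edgeR adjusted p values of at most 0.0498. Part of Cdk4, 19.7% of its exonic bases, overlaps Tspan31 on the other strand, and counting did not use strand, so reads from the overlap cannot be assigned. Tspan31 itself had 2409 to 4744 counts in progenitors, 1110 to 3383 in stem cells and 33 to 724 in astrocytes.

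Cdk6, on chromosome 5 (3341485 to 3531008, plus strand), encodes the second D cyclin kinase, which is known to support the expansion of adult dentate progenitors. It was present in all 4 progenitor libraries at 78.62, 123.4, 42.84 and 44.98 CPM. Stem cells had 0.1027, 2.742, 4.848 and 0 CPM and astrocytes 0.2175, 0.5502, 6.786 and 7.132 CPM, so that 4 of the 8 libraries outside progenitors were at or under 3 counts. The log2 fold change over stem cells was 5.19 ± 1.12 (SE, edgeR adjusted p = 0.018), and without Progenitor b the adjusted p was 0.0631. Over astrocytes the log2 fold change was 4.30 ± 1.19 (SE), just short of the threshold with edgeR (adjusted p = 0.053), while DESeq2 gave 0.000247 and edgeR without Astrocyte a gave 0.0398. Relative to both kinases per length, Cdk6 held 4.41% ± 1.09 in progenitors and 0.255% ± 0.291 in stem cells (SD, n = 4, exact permutation test p = 0.029), and Cdk4 the rest. In astrocytes it held 2.12% ± 2.89 (SD, n = 4) and overlapped with progenitors (exact permutation test, p = 0.171).

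Promoter windows, from 250 bases before to 50 bases after an annotated start site (RefSeq, GRCm38.p6), were read for the members and matched 6 of the 10. The windows of 3 genes are shown, those of both kinases, which were called higher in progenitors than in stem cells, and that of Cdkn1b, which was called in no comparison. Capitals mark matches on either strand to the E-box CACGTG, a site for Myc-type factors, and to the GC box GGGCGG, a site for Sp1-type factors. The windows are chr10:127063285-127063584 (plus strand), chr5:3343643-3343942 (plus strand) and chr6:134920151-134920450 (plus strand).
Cdk4: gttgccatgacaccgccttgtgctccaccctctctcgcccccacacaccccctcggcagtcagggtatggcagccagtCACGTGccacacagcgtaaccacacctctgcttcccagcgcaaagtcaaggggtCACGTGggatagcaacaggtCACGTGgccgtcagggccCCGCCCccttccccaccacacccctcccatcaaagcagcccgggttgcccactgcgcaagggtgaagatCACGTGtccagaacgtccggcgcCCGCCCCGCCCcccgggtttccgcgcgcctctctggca
Cdk6: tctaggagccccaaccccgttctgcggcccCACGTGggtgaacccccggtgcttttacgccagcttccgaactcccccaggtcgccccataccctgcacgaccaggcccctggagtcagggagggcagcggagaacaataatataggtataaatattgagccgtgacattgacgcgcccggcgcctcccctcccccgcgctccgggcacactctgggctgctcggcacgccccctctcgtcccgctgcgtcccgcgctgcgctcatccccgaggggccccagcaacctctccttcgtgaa
Cdkn1b: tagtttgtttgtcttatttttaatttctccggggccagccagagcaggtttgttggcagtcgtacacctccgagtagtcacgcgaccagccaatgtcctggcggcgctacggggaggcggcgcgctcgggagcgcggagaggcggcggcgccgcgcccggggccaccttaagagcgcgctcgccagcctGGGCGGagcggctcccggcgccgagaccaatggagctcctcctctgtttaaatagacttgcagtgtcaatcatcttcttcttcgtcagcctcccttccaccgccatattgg
The Cdk4 window held 4 E-boxes, beginning 172, 118, 98 and 11 bases before the start, and 3 GC boxes, the last 2 of which share 1 base. The Cdk6 window held 1 E-box, 220 bases before the start, and the Cdkn1b window 1 GC box, 61 bases before it. Of all 32851 RefSeq windows of this length, 7.15% held an E-box, 35.7% a GC box, and 8 windows held at least 4 E-boxes. None of the members' 9 windows held the E2F letters searched (TTTCCCGC, TTTCGCGC, TTTGCCGC or TTTGGCGC), the CHR letters TTTGAA or the FOXO letters TTGTTTAC, on either strand, against 2.26%, 17.9% and 1.23% of all windows. These matches describe letters only, and no binding was measured. Of the members' other windows, 1 of Cdkn2c, a gene called in no comparison, also held an E-box, 34 bases after the start. No E-box was found in the windows of Cdkn1a, called higher in progenitors than in astrocytes, or of Ccnd3, called in no comparison. GC content was 67.0% for Cdk4, 66.7% for Cdk6 and the lowest of the 3 for Cdkn1b, against a median of 52.7% for all windows.

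Among the Cip/Kip inhibitors, Cdkn1c on chromosome 7 (143458339 to 143461050, minus strand) was counted in progenitors only. It encodes p57, which is known to hold adult neural stem cells in quiescence. No count was found in any of the 4 stem cell and 4 astrocyte libraries. The progenitor libraries had 81, 73, 17 and 293 counts, or 5.601, 5.949, 1.553 and 25.15 CPM. The progenitor mean was 23.5-fold the mean floor of 3 counts in stem cells and 15.9-fold that floor in astrocytes. This floor covers counting error only, so these are not lower bounds where RNA was lost before sequencing. The lowest library, Progenitor c at 1.553 CPM, lay nearer to the floors, which reached 0.5574 CPM in stem cells and 0.6525 CPM in astrocytes. Cdkn1c could be tested only because of its counts in progenitors. The edgeR adjusted p was 0.017 against stem cells and 0.025 against astrocytes, and without a count filter these were 0.0252 and 0.0765. Against astrocytes it also rose to as much as 0.0595 without Progenitor a, b or c. Progenitor d held most of the counts, so the mean of 9.563 CPM ± 10.6 (SD, n = 4) rests largely on that library. Of its exonic bases, 30.7% overlap the antisense gene Gm44732, which had 5 to 50 counts in progenitors and 0 in all other libraries.

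Cdkn1a, on chromosome 17 (29090976 to 29100727, plus strand), encodes p21, the inhibitor best known as a p53 target. Progenitors had 9.612, 1.711, 14.62 and 1.373 CPM, while in astrocytes 1 count was found in Astrocyte a and 0 in the others. The ratio of summed counts, 336 against 1, was 136 after scaling. Its exact binomial 95% interval, 24.3 to 5388, leaves out the spread between libraries. Cdkn1a, too, entered this test through progenitors alone. The edgeR adjusted p was 0.024, but it was 0.122 without a count filter and rose to as much as 0.0627 without Astrocyte b, c or d or Progenitor a, c or d. Stem cells were divided, with 0, 3.656, 9.2 and 0 CPM, and overlapped with progenitors (edgeR adjusted p = 0.79). Cdkn1a was at zero in Stem 1 and Stem 4, which were the stem cell libraries with the most Ccnd1, and present in Stem 2 and Stem 3, where Ccnd1 was at the floor. Cdk6 followed Cdkn1a here, with 1 and 0 counts in Stem 1 and Stem 4 and 21 and 39 in Stem 2 and Stem 3. These are 4 libraries, and the order was not tested.

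Cdkn1b, on chromosome 6 (134920401 to 134925513, plus strand), encodes p27. On average it was the main Cip/Kip transcript in stem cells, with 88.9% ± 17.8 of the level per exonic kilobase. It made up 60.2% ± 14.5 in progenitors and 92.5% ± 15.0 in astrocytes (SD, n = 4 throughout). With the longest transcript as length, Stem 3 had 49.5% Cdkn1b and 50.5% Cdkn1a. Progenitors had 26.97, 60.38, 36.91 and 50.56 CPM of Cdkn1b and stem cells 30.9, 60.97, 19.77 and 66.33 CPM. The ranges nearly coincided, with a log2 fold change of progenitors over stem cells of -0.05 ± 0.45 (SE, edgeR adjusted p = 0.97), whose sign changed between settings. Astrocytes ranged from 0.6525 to 35.72 CPM, and neither difference from them passed (edgeR adjusted p = 0.47 for progenitors and 0.72 for stem cells).

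Cdkn2c, on chromosome 4 (109660876 to 109667189, minus strand), encodes the INK4 protein p18. It had 27.59, 39.12, 16.44 and 28.07 CPM in progenitors and 14.17, 25.59, 21.63 and 21.55 CPM in stem cells, which overlapped (log2 fold change 0.40 ± 0.44 SE, edgeR adjusted p = 0.69). In astrocytes, 94 counts (17.24 CPM) were found in Astrocyte b, against 1, 0 and 0 in the others. That library decided the comparison, since the log2 fold change of progenitors over astrocytes was 2.68 ± 1.79 (SE, edgeR adjusted p = 0.49) with it and 8.42 (edgeR adjusted p = 0.0219) without it. Stem cells over astrocytes gave 2.25 ± 1.82 (SE), with an edgeR adjusted p of 0.78, and 7.89 (edgeR adjusted p = 0.168) without Astrocyte b.

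Rb1, on chromosome 14 (73183673 to 73325822, minus strand), encodes the retinoblastoma protein, the substrate on which these kinases act. It was the only member with a lower mean in progenitors than in both other cell types, at 20.8 CPM ± 5.97 against 34.1 ± 13.7 in stem cells and 37.5 ± 30.3 in astrocytes (SD, n = 4). The progenitor libraries had 17.56, 29.34, 15.99 and 20.17 CPM and the stem cell libraries 19.3, 30.94, 33.57 and 52.39 CPM. These overlap, and the log2 fold change of -0.75 ± 0.44 (SE) did not pass (edgeR adjusted p = 0.39). Astrocytes ranged more widely, from 6.525 to 70.97 CPM. Of the exonic bases of Rb1, 14.9% overlap Lpar6 and Rcbtb2 on the other strand, and reads from the overlap cannot be assigned.

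**Figure D3:**
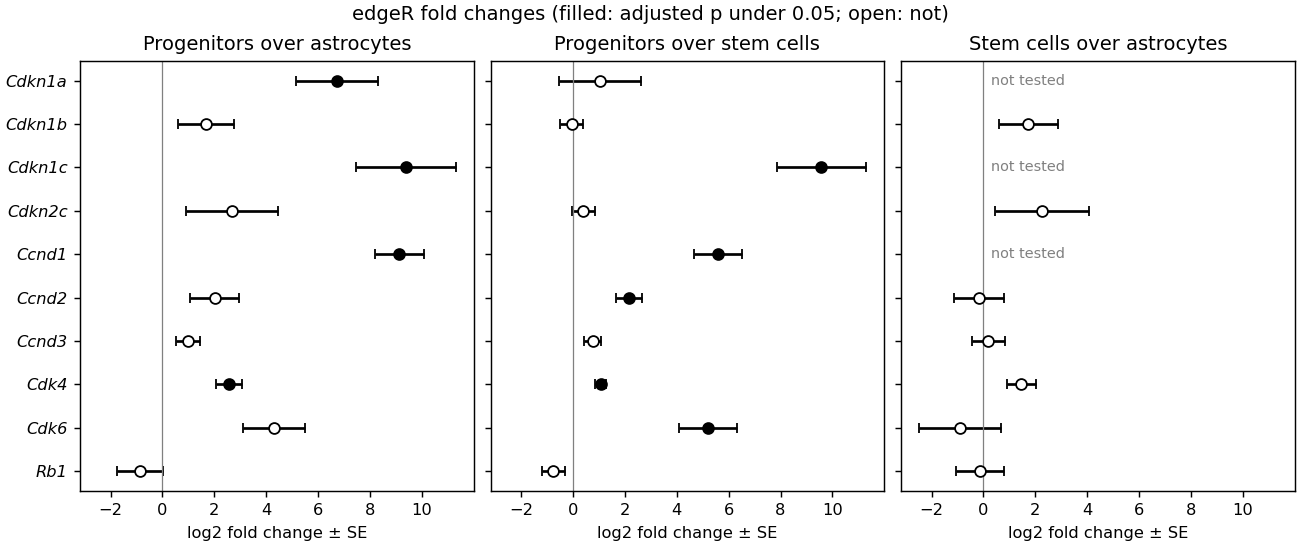
Points give the edgeR log2 fold change of each gene ± SE in the 3 comparisons, filled where the adjusted p was under 0.05. Filled points lie right of 0 in progenitors over astrocytes (4 genes) and over stem cells (5 genes), none is filled for stem cells over astrocytes, and the fitted values of Cdkn1c, whose other groups were at 0 counts, depend on the prior count.

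Stem cells and astrocytes differed in no member by the test. Of the 7 members tested, 0 were called by edgeR or by DESeq2, and only Cdk4 had an unadjusted p under 0.05 with edgeR. Over all genes, calls in this comparison depended on the tool, with 0.0% higher and 0.0468% lower in stem cells among 12831 genes by edgeR, while DESeq2 called 274 higher and 361 lower and edgeR with all 12 libraries in 1 fit called 201 higher and 145 lower. The median log2 fold change of the 7 members was 0.19, beside -0.14 for all genes tested. Counting instead the members whose libraries did not overlap between cell types, 6 of 10 lay above in progenitors over astrocytes, where 14.9% of genes did, and 6 of 10 over stem cells, where 11.7% did. Cdkn1a, Cdkn1c and Ccnd1 over astrocytes and Cdkn1c over stem cells passed the count filter through progenitors alone. That fixed their separation in counts in advance, though not in CPM. In stem cells over astrocytes only Cdk4 lay above without overlap, beside 6.23% of genes.

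The order of the members within a cell type differed as well. In progenitors, Cdk4 was followed per exonic kilobase by Ccnd2 (25.4 ± 17.5 CPM per kilobase), Ccnd1 (25.1 ± 6.53), Ccnd3 (12.5 ± 1.29), Cdkn2c (10.35 ± 3.447) and Cdkn1b (9.601 ± 3.237). In stem cells the inhibitors Cdkn1b (9.77 ± 4.99) and Cdkn2c (7.72 ± 1.78) came next after Cdk4, ahead of Ccnd3 (7.25 ± 2.91), Rb1 (5.66 ± 2.28) and Ccnd2 (5.61 ± 1.96), and Ccnd1 was at 0.508 ± 0.540 (SD, n = 4 throughout). Neighbours in these orders differed by less than the sum of their SDs, except for Cdk4 and the gene after it, for Ccnd1 and Ccnd3 in progenitors, and for Ccnd2 and Cdkn1a, which came next, in stem cells. With the longest transcript as length, Ccnd3 moved to 16.5 CPM per kilobase in stem cells, ahead of both inhibitors.

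The progenitor libraries did not vary together across the 10 genes. Progenitor b was highest for Ccnd2, Cdk4, Cdk6, Cdkn1b, Cdkn2c and Rb1, and lowest for Ccnd1. Progenitor c was lowest for Ccnd2, Cdk4, Cdk6, Cdkn2c, Rb1 and Cdkn1c, and highest for Ccnd1 and Cdkn1a. The summed level of 16 S phase and mitosis genes followed the first of these orders, with 654.8, 2023, 277 and 440.2 CPM in Progenitor a to d, which is also the order of Ccnd2, Cdk4 and Cdk6. The summed oligodendrocyte precursor markers were highest in Progenitor c and lowest in Progenitor b (1878 CPM), as was Ccnd1. Mural cell markers summed to 2100 and 2076 CPM in Progenitor a and c, the libraries with the most Cdkn1a, and to 38.46 and 910.5 CPM in b and d. The part of these cell types in the members' levels was not tested.

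**Figure D4:**
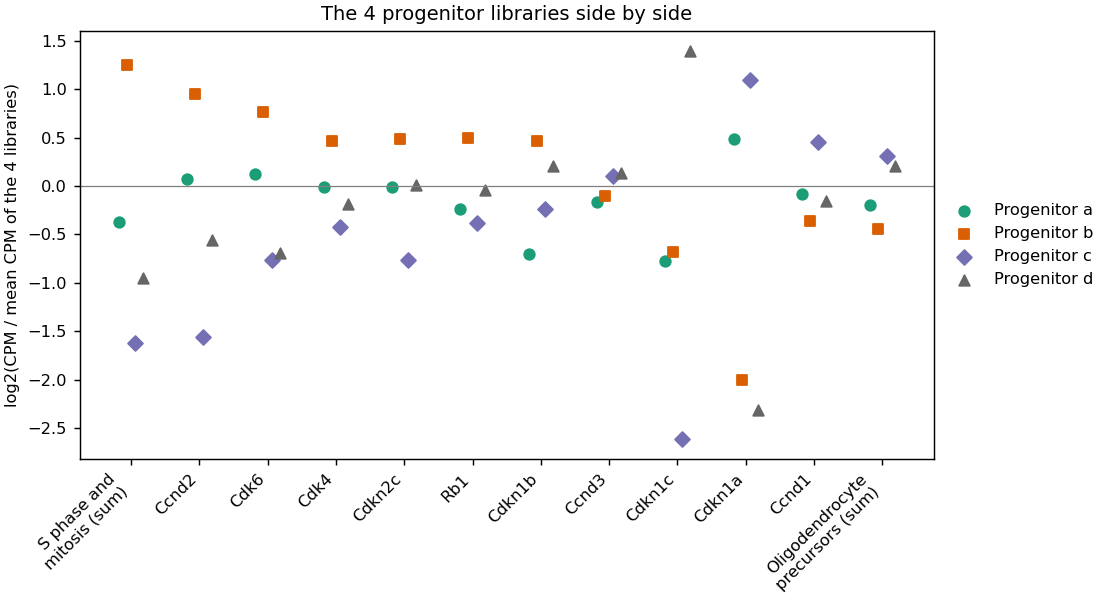
For the 4 progenitor libraries, points give the log2 ratio of a gene's CPM, or of the summed CPM of a marker list, to its mean over the 4 libraries. Progenitor b lies highest for the S phase and mitosis sum, Ccnd2, Cdk6 and Cdk4, whereas Progenitor c lies highest for Cdkn1a, Ccnd1 and the oligodendrocyte precursor sum.

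Around the members, 95 genes that act on or beside them were followed in 9 lists, also chosen with earlier results of these data known. Against astrocytes, 15 of the 76 tested were called higher in progenitors and 0 lower, with a median log2 fold change of 1.11, beside 6.18%, 2.45% and -0.03 for all genes tested. Of these 15 genes, 9 had passed the count filter through progenitors alone, which fixed in advance that their counts were higher there. Against stem cells, 13 of 76 were called higher and 1 lower, with a median of 0.74, beside 4.95%, 3.66% and 0.04 for all genes, and 5 of these had passed through progenitors alone. In stem cells over astrocytes 0 of 57 were called by edgeR, 4 by DESeq2. Without Progenitor b or c, 8 and 9 genes were called against astrocytes.

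Among the 16 S phase and mitosis genes, many of them E2F targets, 4 of 9 tested were called higher in progenitors than in astrocytes and 2 of 10 than in stem cells. They were the replication helicase subunits Mcm2, Mcm4 and Mcm6 and the ribonucleotide reductase subunit Rrm1 against astrocytes, and Mcm4 and Mcm7 against stem cells. Mcm6 had passed the count filter through progenitors alone. Mcm7 had 164.9 CPM ± 91.7 in progenitors and 18.1 ± 6.18 in stem cells (SD, n = 4), a log2 fold change of 3.16 ± 0.47 (SE, edgeR adjusted p = 0.0034). The summed level of the list was between 277 and 2023 CPM in progenitors, between 106.3 and 177.5 CPM in stem cells and between 64.66 and 162 CPM in astrocytes. Mki67 and Top2a, which mark dividing cells, had no count in any stem cell library and did not pass the filter for any comparison. They were the only 2 of the 16 genes at 0 throughout stem cells, where 12 of the 16 reached 10 counts in some library. Their lowest progenitor libraries had 0.09135 and 0 CPM, and their highest astrocyte libraries 2.017 and 24.86 CPM. Ccna2 and Cdk1 had higher means in astrocytes, at 25.75 ± 43.31 and 9.016 ± 18.03 CPM (SD, n = 4). In progenitors they had 21.29 ± 19.65 and 4.991 ± 9.983 CPM (SD, n = 4). All other genes of the list had higher means in progenitors than in astrocytes.

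Of the 16 genes of p53 and its targets, 3 of 15 tested were called higher in progenitors than in astrocytes, the apoptosis gene Bbc3 together with Sesn2 and Phlda3, all of which had passed the count filter through progenitors alone. Against stem cells, Bbc3 and the antiproliferative gene Btg2 were called higher, and Mdm4, an inhibitor of p53, lower. Here, too, Bbc3 had passed the count filter through progenitors alone, which fixed in advance that its counts were higher there. Btg2 had 185.4 CPM ± 89.2 in progenitors and 26.58 ± 2.996 in stem cells (SD, n = 4, edgeR adjusted p = 0.0029), while Mdm4 had 72.2 ± 7.29 and 137.2 ± 27.1 (SD, n = 4, edgeR adjusted p = 0.02). Trp53 itself was not called in either comparison (edgeR adjusted p = 0.16 and 0.19).

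The other lists held few calls. Rbl1, which encodes the Rb relative p107, and Lin54, a DNA-binding subunit of the DREAM complex, were called higher in progenitors than in astrocytes, at 6.23 CPM ± 3.29 against 0.0499 ± 0.0998 and 9.30 ± 5.36 against 0.199 ± 0.288 (SD, n = 4, edgeR adjusted p = 0.016 and 0.04). Both had passed the count filter through progenitors alone, which fixed in advance that their counts were higher there. They were 1 of 9 tested pocket proteins and E2F factors and 1 of 5 tested DREAM and MuvB genes. No gene was called by edgeR among the other INK4 inhibitors, cyclin E and Cdk2 with its activating kinase, the turnover of p27 and D cyclins, or the FOXO and TGF-beta inputs, in any comparison. Cdkn2d, the only other INK4 gene high enough to test, had 34.2 CPM ± 12.8 in progenitors and 25.2 ± 9.97 in stem cells (SD, n = 4, edgeR adjusted p = 0.7).

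The dissociation-response genes, immediate early and heat shock genes that cell isolation is known to induce, stood far apart between the cell types. Of 11 tested, 6 were called higher in progenitors than in astrocytes and 9 than in stem cells, with median log2 fold changes of 6.58 and 5.97. Of these calls, 3 and 4 were of genes that had passed the count filter through progenitors alone, Egr1 among them. Their summed level was between 3202 and 6726 CPM in progenitors, between 137.1 and 212 CPM in stem cells and between 40.31 and 385 CPM in astrocytes. Egr1, for example, had 754.3 CPM ± 328.1 in progenitors and 0.549 ± 0.392 in stem cells (SD, n = 4, edgeR adjusted p = 5.6e-05). Ccnd1 is a known target of the AP-1 factors in this list. It was, like Cdkn1a, highest in Progenitor c, the progenitor library with the lowest summed dissociation response (3202 CPM). The part of the dissociation response in the members' differences was not tested.

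**Figure D5:**
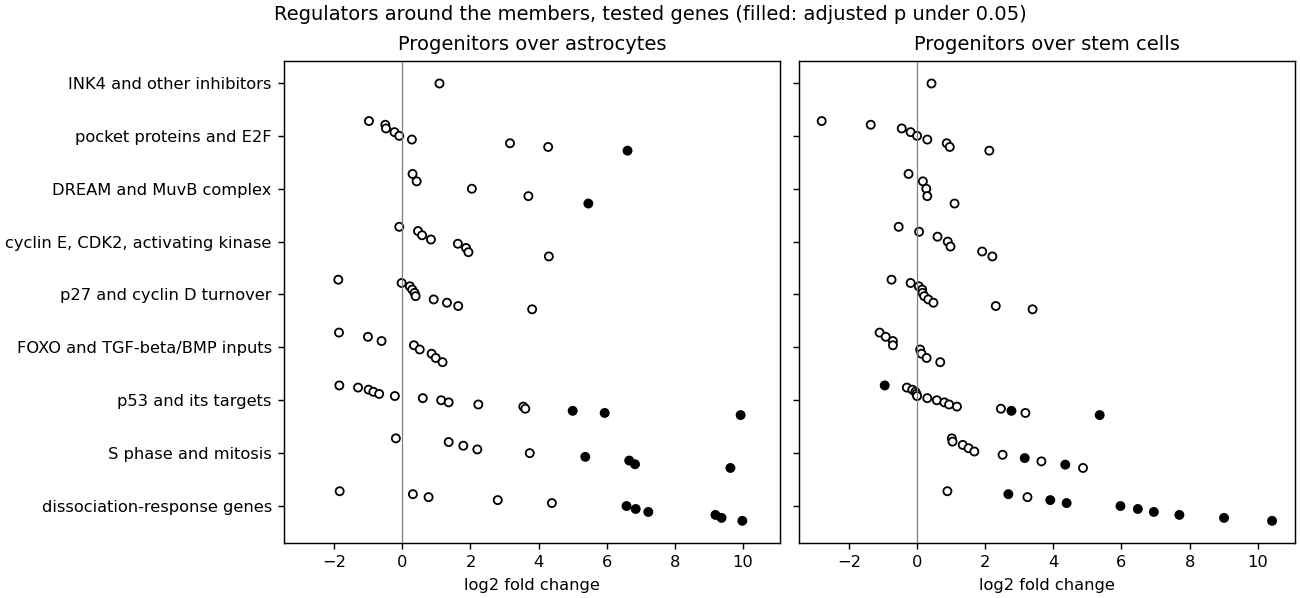
Each point is the edgeR log2 fold change of 1 tested gene, by list, in progenitors over astrocytes (left) and over stem cells (right), filled where the adjusted p was under 0.05. Most filled points are in the S phase and mitosis list (4 and 2 genes), the p53 list (3 and 3 genes, 1 of them lower over stem cells) and the dissociation-response list (6 and 9 genes), while the lists of cyclin E and Cdk2, turnover and FOXO inputs hold open points only.

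For the 6 called members, the genes with the most similar pattern were sought by the root mean square difference between log2(CPM + 1) values, each centred on its mean over the 12 libraries, among 12459 genes. Ccnd1 was nearest to Lhfpl3 (0.57), Sulf2 (0.69) and Prkcq (0.73), where Ccnd1's own deviation was 2.97. Lhfpl3 had 305.5 CPM in progenitors, 5.64 CPM in stem cells and 0.348 CPM in astrocytes on average. Cdkn1c was nearest to the Notch ligand gene Dll3 (0.23), Usp13 (0.27) and Grk5 (0.33), of which Dll3 had 7.50 CPM in progenitors and 0 in both other cell types. Cdk4 was nearest to Gemin2 (0.52), Ubald1 (0.53) and Myef2 (0.53), and Ccnd2 to Rcan2 (0.73), Phf6 (0.76) and Tdg (0.77). Cdk6 was nearest to Mir124a-1hg (0.89), Pde1b (0.91) and Pak7 (0.92), and Cdkn1a to Sfrp4 (0.7), Drc1 (0.71) and Vrk2 (0.74). The 3 genes nearest to each member were all different, so the 6 members did not share a nearest neighbour.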

How the data were processed

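The mouse dentate gyrus libraries were used (50 cells each, SMARTer v4 preamplification, Nextera XT). The deposited values are raw gene counts, which the authors made by aligning reads to GRCm38.p4 with HISAT2 2.0.6 and counting them with featureCounts on GENCODE genes without regard to strand. Symbols, coordinates and exons came from GENCODE M21 (50376 of 50600 identifiers matched), and promoter windows from RefSeq on GRCm38.p6.

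The 10 members and all gene lists were chosen with earlier results of these data known. Genes were tested with edgeR 4.0.16 (R 4.3.3, TMM, quasi-likelihood, not robust, Benjamini-Hochberg), with DESeq2 1.42.0 as an alternative. SE is |log2 fold change| over the root of F. Exact permutation tests, two-sided, used log2(CPM + 1) for levels and percentages for shares. Other steps used Python 3.11.15. The fits were tested on simulated data. Named genes were the members, called genes of the lists (at most 8 each), the 3 genes most like each called member, and checks of the sort; Trp53, Cdkn2d, Mki67 and Top2a were added after their values were seen. Other alternatives were other size factors, no count filter, 10 counts in every library, all 12 libraries in 1 fit, thinned counts, each library left out (filter in 3 libraries), sizes without TMM and the longest transcript as length. CLEAR was not run.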

Additional observations from a re-analysis of the deposited data

Results flagged for a closer look

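Of 28 groups of 4 libraries with counts of a member, 2 held a library that stood apart from the other 3 by Dixon's test at the 95% level, which chance gives in about 1 group in 20. Cdkn1a in Astrocyte a had 0.2175 CPM, which is 1 count, against 0 in the other astrocyte libraries. Cdkn2c in Astrocyte b had 17.24 CPM, or 94 counts, against at most 0.2175 CPM in the other 3.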

How the results depend on the processing

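Of 364 refitted log2 fold changes, 328 kept their direction and side of the threshold, 22 lost the call, 3 gained it and 11 changed sign, all among differences that were not called. Against astrocytes (4 members and 15 regulators called), no count filter left 2 members, 10 counts in every library left 1 member and 0 regulators, since few members reached that count in astrocytes, and DESeq2 called 23 regulators. Leaving out each library gave 2 to 5 members and 8 to 21 regulators. Progenitors against stem cells (5 members and 14 regulators) kept 2 members and 8 regulators with 10 counts in every library, 1 member and 6 regulators with all 12 libraries in 1 fit, and 3 to 5 members and 10 to 16 regulators without 1 library. The cause was not tested. Stem cells against astrocytes (0 and 0) gained 4 regulators with DESeq2 and 2 with all 12 libraries. The signs that changed were those of Cdkn1b in progenitors over stem cells (0.03 with 10 counts in every library, -0.3 to 0.22 without 1 library), and in stem cells over astrocytes of Ccnd2 (-0.57 to 0.33 without 1 library) and Rb1 (0.01 with 10 counts in every library, -0.46 to 0.39 without 1 library).

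No paired analysis was possible because the astrocyte and progenitor columns carry no replicate number. At this depth, members at 0 counts are known only to lie under the floor of 3 counts, and that floor covers counting error only.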
